A study of Mus musculus with 23 samples.

Results

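Interferon-response genes are genes that cells switch on when interferons bind their receptors, through receptor-bound kinases and a transcription factor complex containing IRF9 that binds a DNA motif called the interferon-stimulated response element. Their products include antiviral enzymes, RNA-binding proteins, the ubiquitin-like protein ISG15 with the enzymes that attach and remove it, and transcription factors that raise the response further. In bone marrow, interferons are best known for driving haematopoietic stem cells (HSC) into division. Red cell precursors lose organelles and most proteins as they mature, a process in which the ubiquitin system takes part.

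The 9 genes described here are Rsad2 (viperin, an antiviral radical SAM enzyme), Ifit1 and Ifit3 (proteins of the IFIT family, which bind viral RNA), Isg15, Ube2l6 (the conjugating enzyme of the ISG15 pathway, also able to carry ubiquitin), Usp18 (the protease that removes ISG15 and damps the interferon receptor), Oas2 (a sensor of double-stranded RNA that activates RNase L), Irf7 (a transcription factor of the response) and Ifi203 (a p200 family protein). They were taken by symbol, and all 9 of 9 were found among the 23536 rows of the deposited table. Their selection rested on levels in the same cells: the contrasts of late erythroid cells with the other groups are therefore given as descriptions, with no p for these genes. Reads of Ifi203, of Ifit1 and of Ifit3 can be shared with near-identical family members, so the values of those 3 genes are uncertain.

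The study profiled single cells of mouse bone marrow by CEL-seq, a method that counts the 3′ ends of mRNA molecules with a molecular barcode. Cells came from 18 libraries of small clumps taken apart by hand (micro-dissected), and from 5 libraries of sorted HSC gated as Lin- Kit+ Sca1+ CD150+ CD48-. The labels give no strain, age, animal or treatment for either group. No group is a mutant or a stimulated control, so the levels below are those of cells to which no interferon is recorded to have been given. The table held 1546 dissected wells of 17 libraries and 369 sorted wells of 4 libraries, and 952 cells with at least 1000 transcripts were kept (707 dissected and 245 sorted).

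Dissected cells were divided by 2 red cell genes. Late erythroid cells held more transcripts of Slc4a1, the band 3 anion exchanger of the red cell membrane, than of Car1, the carbonic anhydrase of earlier red cell precursors. There were 327 late erythroid cells with 1024819 transcripts in all (median 2075 per cell). Early erythroid cells held Car1 with Slc4a1 no higher (82 cells, median 4049), and the other dissected cells held neither gene (298 cells, median 2381). Sorted HSC had a median of 1926 transcripts per cell.

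The late erythroid rule is broad. Only 194 of its 327 cells (59.3%) fell into erythroblast-like clusters, and the remaining 133 lay among granulocyte, monocyte, macrophage, megakaryocyte, plasma cell and unnamed clusters. The red cell genes Hbb-b1 and Alas2 were detected in 73.1% and 74.9% of late erythroid cells, against 11.4% and 13.1% of other dissected cells. S100a8, a neutrophil gene, was detected in 85.9% of late erythroid cells, 95% of other dissected cells and 1.63% of sorted HSC. It was also detected in 80.6% of erythroblast-like cells, and whether these transcripts were carried over from other cells was not tested. The summed level of 11 myelocyte and metamyelocyte markers was 26516.2 CPM (transcripts per 1000000 transcripts of the cells summed) in late erythroid cells (1930.0 to 74242.7 CPM over libraries), 55380.3 CPM in other dissected cells and 193.3 CPM in sorted HSC, where 4 of the 11 (Ltf, Lcn2, Cd177, Ifitm6) were at 0. In late erythroid cells of erythroblast-like clusters it was 2633.7 CPM, and the sum of 12 macrophage markers was 431.8 CPM, against 4160.4 CPM in late erythroid cells of other clusters. Levels are therefore given for all late erythroid cells and, where they differ, for those in erythroblast-like clusters. The summed level of 21 erythroblast marker genes was 21666.1 CPM in late erythroid cells, 9060.0 CPM in early erythroid cells, 856.2 CPM in other dissected cells and 1136.3 CPM in sorted HSC.

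Levels per library were taken from summed counts of at least 5 cells, which gave 14 libraries for late erythroid cells, 8 for early erythroid cells, 14 for other dissected cells and 3 for sorted HSC (replicates 3, 4 and 5). The fourth sorted library in the table, replicate 1, had 2 cells and held no Rsad2 or Ube2l6 transcript. Sorting, as against dissection, coincides with cell type in every comparison with sorted HSC, and their effects cannot be told apart. Nothing in the labels says that libraries came from separate animals, so the spread between them may be technical. The titles of sorted HSC replicates 3, 4 and 5 share a name stem, and that of replicate 1 has another. What the stem stands for is not stated, so the 3 sorted libraries may not be independent samples.

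The promoters of 4 of the genes are shown because 3 of them hold the interferon motif and 1, Ube2l6, does not. Each window covers 250 bases before and 50 bases after the transcription start (RefSeq, GRCm38.p6). Capitals mark the core of the interferon-stimulated response element: GAAA, any 2 bases and GAAA again, searched on both strands (TTTC, any 2 bases and TTTC on the other).

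Rsad2, chr12:26456403-26456702, minus strand: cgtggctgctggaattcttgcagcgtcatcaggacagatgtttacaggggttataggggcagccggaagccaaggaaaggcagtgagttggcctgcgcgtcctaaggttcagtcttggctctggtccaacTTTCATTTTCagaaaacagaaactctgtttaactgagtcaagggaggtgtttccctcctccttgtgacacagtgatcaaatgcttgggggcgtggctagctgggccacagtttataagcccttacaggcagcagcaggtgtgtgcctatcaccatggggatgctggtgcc

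Isg15, chr4:156200769-156201068, minus strand: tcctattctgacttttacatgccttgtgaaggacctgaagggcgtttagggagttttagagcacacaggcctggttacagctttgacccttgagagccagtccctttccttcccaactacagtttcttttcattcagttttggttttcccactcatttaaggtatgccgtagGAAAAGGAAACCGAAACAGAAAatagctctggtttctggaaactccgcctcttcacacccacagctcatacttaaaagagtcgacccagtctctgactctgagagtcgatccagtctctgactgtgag

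Ifi203, chr1:173942443-173942742, minus strand: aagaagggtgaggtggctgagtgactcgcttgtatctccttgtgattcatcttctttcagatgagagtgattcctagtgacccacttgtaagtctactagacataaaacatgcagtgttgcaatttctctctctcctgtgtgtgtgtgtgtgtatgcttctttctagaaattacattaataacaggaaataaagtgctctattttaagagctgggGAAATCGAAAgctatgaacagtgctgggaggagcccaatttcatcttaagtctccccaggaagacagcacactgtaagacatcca

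Ube2l6, chr2:84798578-84798877, plus strand: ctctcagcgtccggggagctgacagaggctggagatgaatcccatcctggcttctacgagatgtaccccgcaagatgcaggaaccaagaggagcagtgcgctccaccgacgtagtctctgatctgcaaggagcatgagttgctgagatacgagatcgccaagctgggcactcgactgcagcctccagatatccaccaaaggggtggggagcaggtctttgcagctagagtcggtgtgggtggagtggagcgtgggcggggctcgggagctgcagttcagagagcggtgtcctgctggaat

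Of the 9 genes, 7 had a promoter in the RefSeq table used (not Usp18 or Oas2), and 5 of these 7 held the motif. Rsad2 held 1 match, 120 bases before the start, and Isg15 held 3 overlapping matches between 78 and 66 bases before it. Ifit1 and Ifit3 held 2 matches each, and Ifi203 held 1 match in the second of its 2 listed windows, 35 bases before the start. The windows of Ube2l6 and Irf7 held none. Over the whole promoter table, 3.44% of 32851 windows and 3.99% of 27025 genes held the motif. The GATA motif AGATAA (reverse TTATCT), bound by the red cell factor GATA1, was found in 1 of the 7 promoters, that of Irf7, and in 11.2% of all windows. On mm10, Rsad2 is at chr12:26442746-26456452 and its neighbour Cmpk2 at chr12:26469204-26479837, on opposite strands.

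Rsad2 was higher in late erythroid cells than in each other group. Its level per library ran from 38.7 to 759.7 CPM (median 335.7) in late erythroid cells, against 33.6, 8.56 and 22.2 CPM in sorted HSC replicates 3, 4 and 5. All 14 late erythroid libraries lay above all 3 sorted libraries, although the lowest, replicate 4, held only 1 Rsad2 transcript in 10 cells. With a minimum of 500 transcripts per cell this separation ended: sorted HSC replicate 1, then at 7 cells, held 1 Rsad2 transcript (152.9 CPM), and 13 of 14 late erythroid libraries (134.7 to 911.1 CPM) lay above all sorted libraries. The sorted HSC mean of Rsad2 was then 60 CPM. The mean was 345.3 ± 187.5 CPM in late erythroid cells (SD, n = 14) and 21.5 ± 12.5 CPM in sorted HSC (SD, n = 3). The pooled ratio was 15.3 (95% counting interval 8.84 to 29, from 378 and 13 transcripts), and the log2 fold change fitted by edgeR was 3.81 ± 0.68 (SE).

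Early erythroid cells had 13.3 to 506.3 CPM of Rsad2 (median 46.6, n = 8), and other dissected cells had 0 to 120.5 CPM (median 47, n = 14). Late erythroid cells were higher than early erythroid cells of the same library in 6 of 8 libraries, and higher than other dissected cells in 12 of 13. The early erythroid maximum came from 4 transcripts in the 5 cells of replicate 5; the next library stood at 128.5 CPM. Early erythroid, other dissected and sorted cells overlapped for Rsad2 and could not be ordered among themselves. Its mean was 106.3 ± 165.7 CPM in early erythroid cells and 42.2 ± 34.9 CPM in other dissected cells (SD).

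Rsad2 transcripts were found in 40.1% of late erythroid cells, 19.5% of early erythroid cells, 10.7% of other dissected cells and 4.90% of sorted HSC. With every cell thinned to 1000 tags the shares were 25.6%, 5.0%, 5.46% and 1.63%. Hbb-b1 was found in 11.4% of other dissected cells, and the part of carried-over red cell RNA in their Rsad2 was not tested. Among late erythroid cells Rsad2 stood at 654.2 CPM in erythroblast-like clusters and 174.0 CPM in the other clusters, so the contrast with sorted HSC was wider within the erythroblast-like cells (ratio 27.1, counting interval 15.6 to 51.6).

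**Figure D1:**
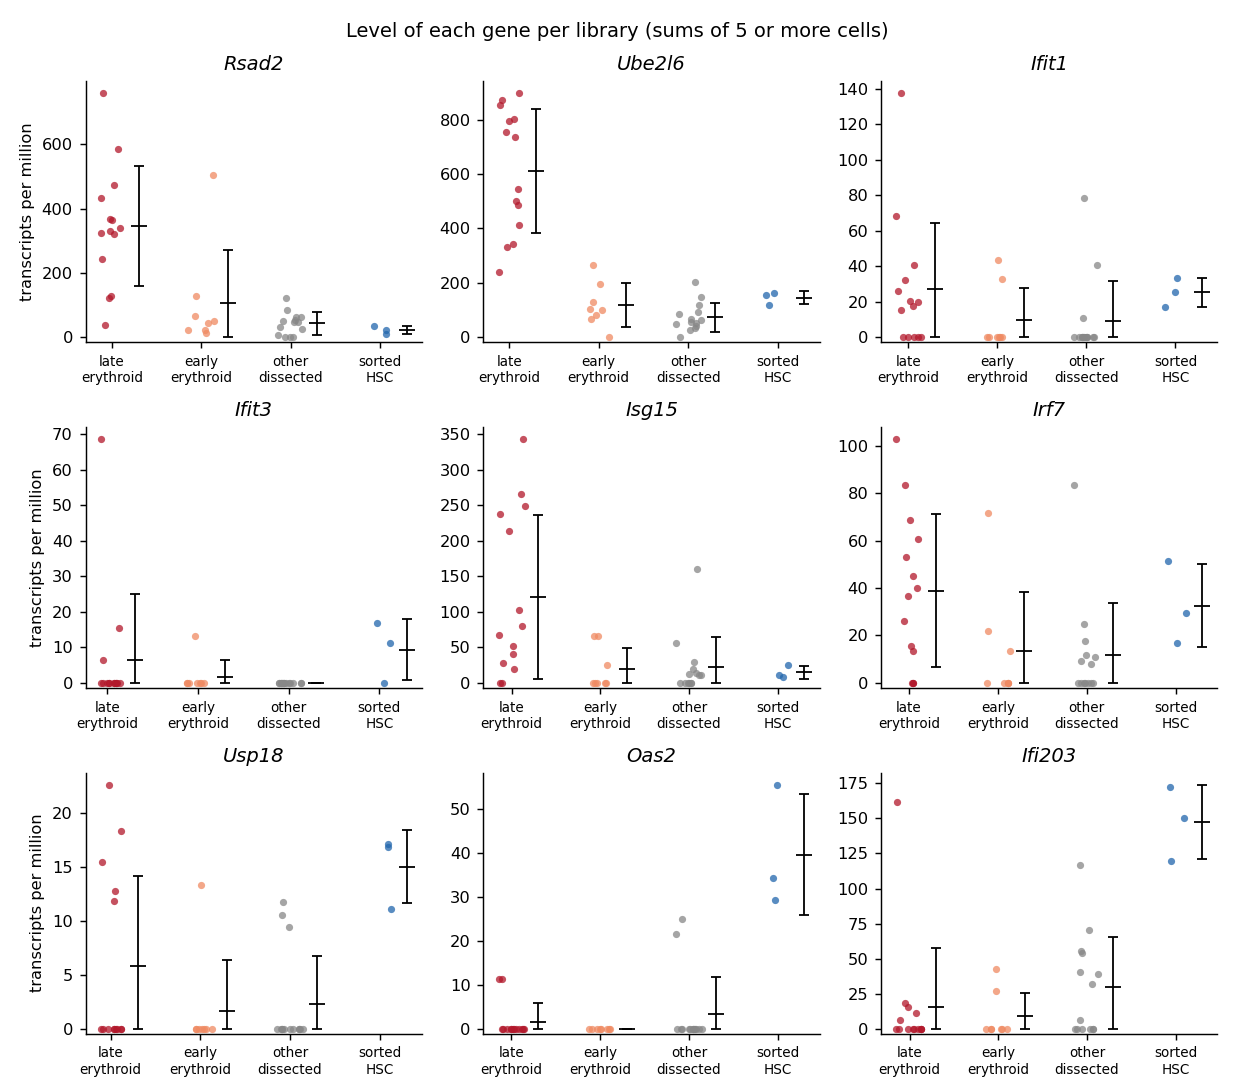
Level of each of the 9 genes in CPM (y axis) in late erythroid, early erythroid, other dissected and sorted HSC cells. Each point is the sum of at least 5 cells of 1 library, and the bars give the mean ± SD, with the lower end cut at 0. For Rsad2 and Ube2l6 all 14 late erythroid points lie above the 3 sorted HSC points, and for Oas2 they lie below them.

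Ube2l6 was also higher in late erythroid cells than in each other group. It ran from 240.0 to 897.6 CPM (median 640.8) in late erythroid cells, against 163.8, 154.1 and 116.8 CPM in sorted HSC replicates 3, 4 and 5. No late erythroid library overlapped a sorted one, and the means were 612.2 ± 228.5 CPM and 144.9 ± 24.8 CPM (SD, n = 14 and n = 3). The fitted log2 fold change was 1.99 ± 0.49 (SE) over sorted HSC.

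Against early erythroid cells, Ube2l6 was higher in 8 of 8 shared libraries, with no overlap between late erythroid (330.4 to 897.6 CPM) and early erythroid libraries (0 to 264.0 CPM). It was also higher than in other dissected cells in 13 of 13 shared libraries, where the level in other dissected cells was 0 to 201.8 CPM over all 14 libraries. The fitted log2 fold changes were 2.56 ± 0.32 over early erythroid and 3.07 ± 0.27 over other dissected cells (SE, library as a block). Sorted HSC held more Ube2l6 than other dissected cells in pooled counts (144.6 against 67.1 CPM, ratio 2.15, counting interval 1.54 to 3.03), but the libraries overlapped.

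Ube2l6 was detected in 68.8% of late erythroid cells, 35.4% of early erythroid cells, 17.8% of other dissected cells and 25.3% of sorted HSC. Thinned to 1000 tags, the shares were 47.7%, 17.5%, 6.83% and 13.9%. Its level was 1207.4 CPM in late erythroid cells of erythroblast-like clusters and 270.9 CPM in those of other clusters.

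Isg15, the modifier that UBE2L6 carries, varied more. Late erythroid libraries ran from 0 to 343.5 CPM (median 73.6), against 25.2, 8.56 and 11.1 CPM in sorted HSC replicates 3, 4 and 5. In 11 of the 14 late erythroid libraries Isg15 lay above all sorted libraries, while 2 late erythroid libraries held no transcript. The mean was 121.4 ± 115.5 CPM in late erythroid cells and 14.9 ± 8.95 CPM in sorted HSC (SD, n = 14 and n = 3), with a fitted log2 fold change of 2.92 ± 0.88 (SE). Pooled levels in early erythroid, other dissected and sorted cells were 15.8, 16.8 and 16.7 CPM, from 7, 17 and 9 transcripts. Late erythroid cells were higher than early erythroid cells in 6 of 8 libraries and than other dissected cells in 11 of 13.

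Irf7 stood at 51.7 CPM in late erythroid cells (53 transcripts), 18.1 CPM in early erythroid cells (8), 11.8 CPM in other dissected cells (12) and 29.7 CPM in sorted HSC (16). The pooled ratio of late erythroid to sorted cells was 1.74 (counting interval 0.981 to 3.27), and the libraries overlapped (0 to 102.8 CPM against 16.7 to 51.3 CPM). Within erythroblast-like clusters Irf7 stood at 101.0 CPM in late erythroid cells, with a ratio to sorted HSC of 3.4 (counting interval 1.87 to 6.49).

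For Ifit1, Ifit3 and Usp18 late erythroid cells and sorted HSC did not differ beyond counting error. Ifit1 stood at 25.4 CPM in late erythroid cells (26 transcripts) and 26 CPM in sorted HSC (14), a ratio of 0.977 (counting interval 0.492 to 2.02). Against early erythroid cells (3 transcripts) its ratio was 3.74 (counting interval 1.15 to 19.3), and within erythroblast-like clusters 8.8 (1.32 to 374.1, from 13 transcripts and 1). Ifit3 was counted 4 times in late erythroid cells, 1 time in early erythroid cells, 0 times in other dissected cells, and 6 times in sorted HSC. Usp18 was counted 9 times in late erythroid cells and 8 times in sorted HSC (8.78 and 14.8 CPM, ratio 0.592, counting interval 0.203 to 1.76). A difference in these 3 genes was not detectable at this depth.

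Oas2 and Ifi203 were higher in sorted HSC than in late erythroid cells. Oas2 was at 0 in 12 of 14 late erythroid libraries and at most 11.4 CPM in the other two, against 29.4, 34.3 and 55.6 CPM in sorted HSC replicates 3, 4 and 5. The late erythroid libraries all lay below these sorted ones (3 transcripts against 21), but sorted HSC replicate 1, with 7 cells at a minimum of 500 transcripts, held none. Ifi203 ran from 0 to 161.6 CPM (median 0) in late erythroid cells, against 172.6, 119.8 and 150.1 CPM in sorted HSC. A single late erythroid library reached the sorted range: replicate 8, with 1 Ifi203 transcript in 5 late erythroid cells. With a minimum of 500 transcripts per cell it stood at 111.7 CPM (1 transcript in 9 cells), below each sorted library. The fitted log2 fold change of Ifi203 was -4.33 ± 0.64 (SE) in late erythroid cells over sorted HSC, and 2.40 ± 0.62 in sorted HSC over other dissected cells. Each of the 3 sorted libraries had more Oas2 and more Ifi203 than any of the 14 libraries of other dissected cells. Ifi203 was detected in 24.9% of sorted HSC and 1.83% of late erythroid cells, and Oas2 in 7.35% and 0.917%.

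These counts were read against the table as a whole. Of the 9 genes, 4 passed the edgeR filter on low counts between late erythroid cells and sorted HSC; among the 2767 genes that passed it, 35.6% were called at an adjusted p under 0.05 (18.1% higher and 17.5% lower in late erythroid cells). In the same 2767 genes every late erythroid library lay above every sorted one for 5.57%, and below for 9.04%. Between late and early erythroid cells 1 of the 9 genes, Ube2l6, passed the filter, with 42.4% of 596 genes called and libraries that did not overlap in 0.671% (higher) and 2.85% (lower). The calls there split into 149 higher and 104 lower in late erythroid cells, and into 86 higher and 182 lower when scaled by library totals. Between late erythroid and other dissected cells Ube2l6 was again the only gene of the set to pass, with 43.2% of 1079 genes called and libraries that did not overlap in 1.11% (higher) and 0.0927% (lower). Between sorted HSC and other dissected cells Ube2l6 and Ifi203 passed, with 36.7% of 2490 genes called (16.9% higher and 19.9% lower) and libraries that did not overlap in 7.79% (sorted HSC higher) and 7.15% (sorted HSC lower). Those calls split into 420 higher and 495 lower in sorted HSC, and into 587 and 428 under library totals. The comparisons share groups of cells, so they are not independent of each other. Since the 9 genes were picked on these contrasts, no inference was drawn from their share of calls.

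Within late erythroid cells Rsad2, Ube2l6, Isg15 and Irf7 were low in cells with few Slc4a1 transcripts. Rsad2 stood at 56.7 CPM in the 96 cells with 1 to 2 Slc4a1 transcripts, 574.5 CPM in the 75 cells with 3 to 7, 721.1 CPM in the 94 cells with 8 to 14 and 514.8 CPM in the 62 cells with 15 or more. Ube2l6 stood at 115.6, 774.3, 1188.2 and 1217.3 CPM in the same 4 bins. Its counting intervals did not overlap between the first 3 bins, and the last 2 bins did not differ beyond counting error. Isg15 had 6.80, 179.8, 350.4 and 278.8 CPM, and Irf7 had 4.53, 54.9, 96.5 and 112.6 CPM. The lowest bin was mostly not red cell precursors by cluster: 5 of its 96 cells were in erythroblast-like clusters, against 50 of 75, 80 of 94 and 59 of 62 in the others. S100a8 ran the other way, at 33278.1, 14167.0, 2549.1 and 1512.2 CPM, and its part in these levels was not tested.

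**Figure D2:**
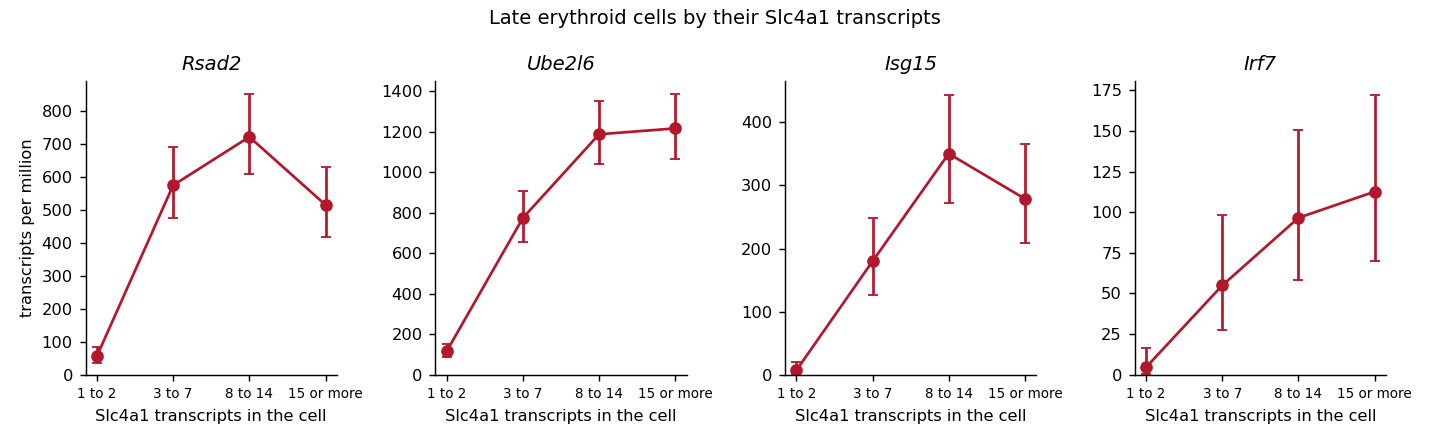
Pooled level of Rsad2, Ube2l6, Isg15 and Irf7 in CPM (y axis) in late erythroid cells, by the number of Slc4a1 transcripts in the cell (x axis). Bars are 95% Poisson intervals of the pooled count and cover counting error only. Rsad2 is at 56.7 CPM with 1 to 2 Slc4a1 transcripts and between 514.8 and 721.1 CPM in the 3 higher bins.

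The erythroblast-like cells fell into 3 clusters, made without the 9 genes and without the interferon gene lists. The first, led by Car1, had 93 cells, the second had 108, and the third, with Xpo7, Tmcc2, Cd36, Ube2h and Bpgm among its leading genes, had 36. Rsad2 stood at 89.1 CPM in the Car1-led cluster, 567.5 CPM in the second and 2417.6 CPM in the third (counting interval 2012.4 to 2880.4), where 69.4% of cells held a transcript. Ube2l6 stood at 319.9, 1371.5 and 2340.2 CPM in the same clusters, and Isg15 at 43.4, 288.5 and 1044.4 CPM. The third cluster also had the highest Hbb-b1 (11120.8 CPM) and Alas2 (4409.7 CPM) of the 3, and its cells were the shallowest, with a median of 1274 transcripts, against 1709 in the second and 3022 in the Car1-led cluster.

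The order of the clusters was counted library by library. In libraries with at least 3 cells of each, Rsad2 was higher in the second cluster than in the Car1-led one in 9 of 10 libraries, Ube2l6 in 10 of 10 and Isg15 in 7 of 10. The third cluster was above the second in 4 of 6 libraries for Rsad2, 3 of 6 for Ube2l6 and 4 of 6 for Isg15. The third was above the Car1-led cluster in 6 of 6 libraries for Rsad2 and Ube2l6 and in 4 of 6 for Isg15.

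Pooled Rsad2 was 405.3 CPM in the 237 erythroblast-like cells (counting interval 359.5 to 455.2), and the other classes of dissected cells stood below this value. The intervals of the macrophage-like and unnamed cells overlapped it. It was 341.2 CPM in 18 macrophage-like cells, which also held Hbb-b1 at 3188.8 CPM and Slc4a1 at 576.6 CPM, and 313.2 CPM in 66 cells of unnamed clusters. The 8 macrophage-like cells outside the late erythroid group held 5 Rsad2 transcripts (250.9 CPM, counting interval 81.5 to 585.4). Mature neutrophil-like cells had 201.3 CPM of Rsad2 from 19 transcripts in 57 cells, with 286.0 CPM of Hbb-b1; the 46 of them outside the late erythroid group held 12 Rsad2 transcripts (168.6 CPM, counting interval 87.1 to 294.4). By the same split, the 43 erythroblast-like cells outside the late erythroid group held 12 Rsad2 transcripts (42.1 CPM, counting interval 21.8 to 73.5). Megakaryocyte-like cells had 81.4 CPM of Rsad2, from 10 transcripts in 5 of 8 cells. Lower levels were found in monocyte and dendritic-like cells (64.3 CPM), myelocyte and metamyelocyte-like cells (45 CPM), eosinophil-like cells (42.9 CPM) and myeloblast and promyelocyte-like cells (8.14 CPM). None of 9 plasma cell-like cells held Rsad2, which allows up to 132.2 CPM (3 counts). The part of carried-over red cell RNA in these levels was not tested.

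Other genes of the set had their own places. Ifi203 stood at 110.3 CPM in 58 monocyte and dendritic-like cells (24 transcripts in 29.3% of cells) and at 5.71 CPM in erythroblast-like cells. The 43 monocyte and dendritic-like cells outside the late erythroid group held 23 Ifi203 transcripts (146.5 CPM, counting interval 92.9 to 219.9). This interval spanned the levels of the 3 sorted HSC libraries (119.8 to 172.6 CPM). Ifit1 stood at 195.4 CPM in 8 megakaryocyte-like cells, with 24 transcripts in 6 of the 8 cells, 13 of them in 1 cell of replicate 15. Irf7 stood at 69.9 CPM in erythroblast-like cells and 41.4 CPM in monocyte and dendritic-like cells. Ube2l6 stood at 786.3 CPM in erythroblast-like cells (counting interval 722.0 to 854.7) and 670.7 CPM in macrophage-like cells (508.0 to 869.0). Isg15 stood at 191.2 CPM (160.2 to 226.5) and 105.9 CPM (48.4 to 201.0), with 148.3 CPM in unnamed cells (97.8 to 215.8). For each gene these intervals overlapped. The 8 macrophage-like cells outside the late erythroid group held 3 Ube2l6 and 2 Isg15 transcripts.

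**Figure D3:**
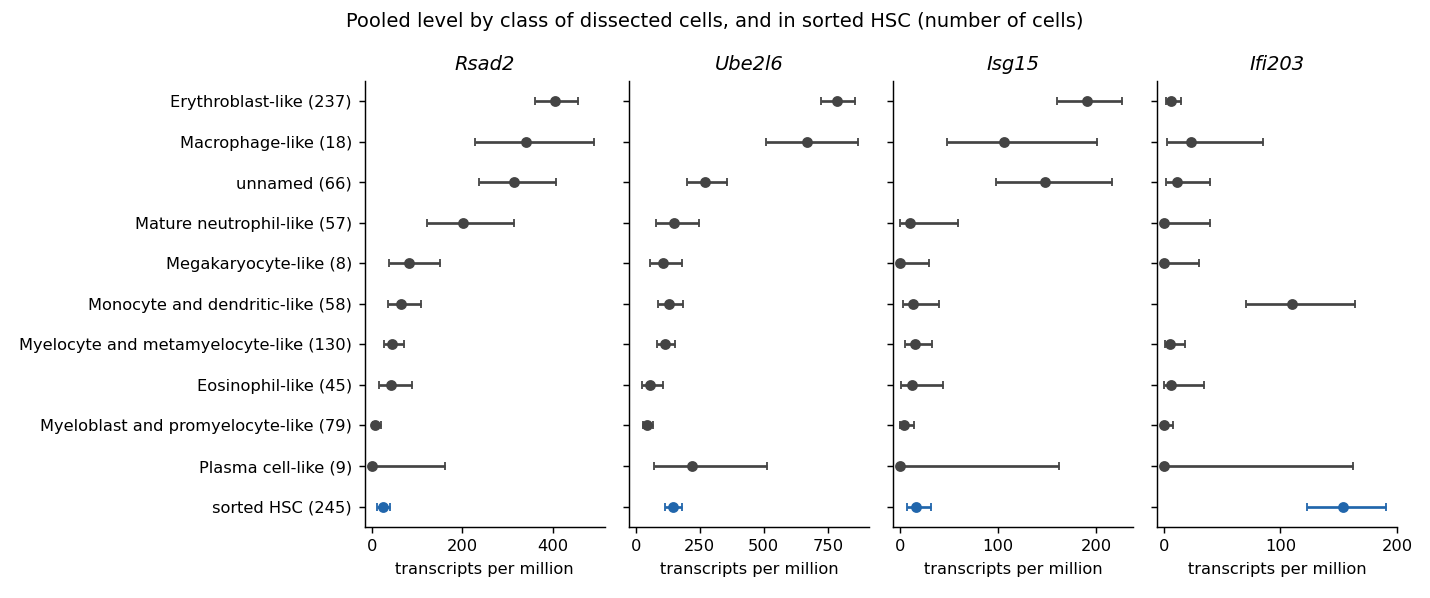
Pooled level of Rsad2, Ube2l6, Isg15 and Ifi203 (x axis, CPM) in each class of dissected cells and in sorted HSC (y axis, number of cells in brackets). Bars are 95% Poisson intervals for counting error only. Rsad2 is at 405.3 CPM in erythroblast-like cells and Ifi203 at 153.9 CPM in sorted HSC.

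Several of the genes were found in the same cells. At least 3 of the 9 genes had a transcript in 68 of 327 late erythroid cells (20.8%), 2 of 82 early erythroid cells (2.44%), 3 of 298 other dissected cells (1.01%) and 13 of 245 sorted HSC (5.31%). In late erythroid cells of erythroblast-like clusters the count was 55 of 194 (28.4%). Among these 194 cells, 86 held Rsad2 and 108 did not. Isg15 was detected in 44.2% of the cells with Rsad2 (exact binomial 95% interval 33.5 to 55.3) and 15.7% of those without it (9.45 to 24). Irf7 was detected in 26.7% (17.8 to 37.4) and 8.33% (3.88 to 15.2). Usp18 was found in 6 cells, all of them with Rsad2 (6.98% of those cells). It was found in none of the 108 cells without Rsad2, which allows a share of up to 2.78%. The exact intervals of the Usp18 shares with and without Rsad2 overlapped. Ube2l6 was detected in 88.4% and 84.3%, which did not differ beyond counting error. The depth of the cells with and without Rsad2 was alike, with medians of 1696 and 1685 transcripts. These 194 cells came from the Car1-led cluster and from the erythroblast-like clusters of 108 and 36 cells. Rsad2 was detected in 20.4%, 46.3% and 69.4% of all cells of these clusters, and Isg15 in 12.9%, 28.7% and 44.4%. Irf7 was detected in 15.1%, 16.7% and 13.9%. Whether the genes were paired within each cluster was not tested. Cells of 1 library share its source, so these intervals cover counting error only.

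The transcripts were unevenly spread over cells. The 10 late erythroid cells highest in each gene held 31% of all late erythroid Rsad2 transcripts, 15.5% of Ube2l6, 44.4% of Isg15 and 80.8% of Ifit1. The highest Rsad2 count was 26 transcripts, in an erythroblast-like cell of replicate 9 with 1897 transcripts in all and 9 of Slc4a1; it held 7 transcripts of Ube2l6, 4 of Irf7 and none of Isg15. The next, in replicate 17, had 14 transcripts each of Rsad2 and Isg15, 5 of Ube2l6, 4 of Ifit1 and 1 of Usp18, out of 1316.

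In sorted HSC the numbers were too small to show which genes went together. Of the 9 sorted HSC with Isg15, 5 held Ifi203 (55.6%, exact binomial 95% interval 21.2 to 86.3), against 23.7% of those without Isg15 (18.5 to 29.7). Of the 18 with Oas2, 9 held Ifi203 (50.0%, 26 to 74), against 22.9% of those without Oas2 (17.6 to 28.9). Both pairs of intervals overlapped. Only 12 sorted HSC held Rsad2, and none of these held Isg15 (interval 0 to 26.5%), against 3.86% of those without Rsad2. Whether the pairing differed between sorted HSC and erythroid cells was not tested.

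**Figure D4:**
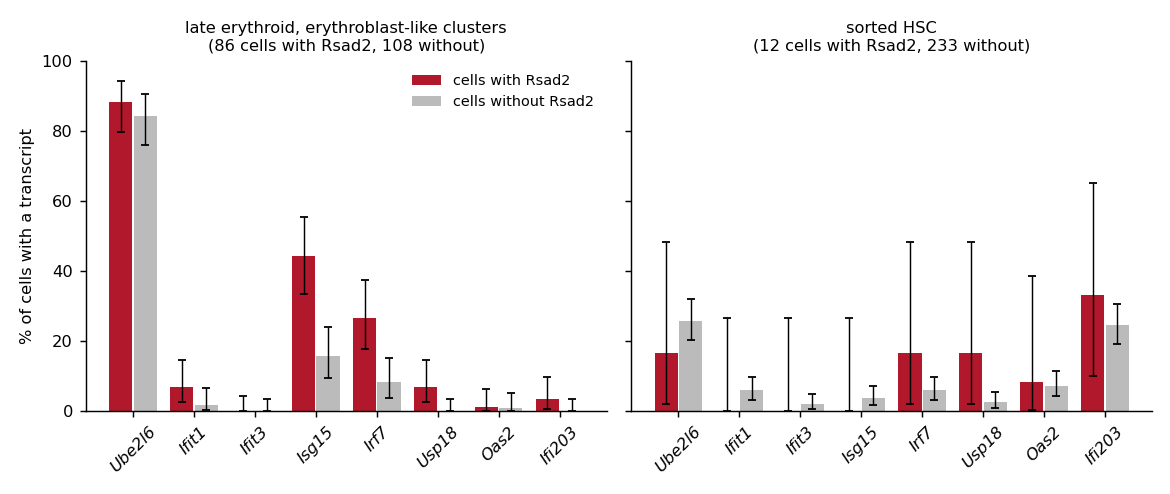
Share of cells with a transcript of each other gene of the set (y axis, percent) among cells with Rsad2 (red) and without it (grey), in late erythroid cells of erythroblast-like clusters (left) and sorted HSC (right). Bars are exact binomial 95% intervals. Isg15 was found in 44.2% of the erythroblast-like late erythroid cells with Rsad2 and 15.7% of those without.

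A running number in the names of the dissected cells was read as the clump they came from; its meaning is not stated. Of 71 clumps that gave 2 late erythroid cells, both cells held Rsad2 in 12, a single cell in 34 and neither in 25. For Ube2l6 both held it in 37, a single cell in 28 and neither in 6. In the 42 clumps with 2 late erythroid cells of erythroblast-like clusters, the counts for Rsad2 were 10, 18 and 14, and for Isg15 5, 20 and 17.

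The 18th micro-dissected library is held only in its own file, outside the table, and gave the same genes in cells that the selection did not use. Its 65 late erythroid cells had 495.8 CPM of Rsad2 (110 transcripts, counting interval 407.5 to 597.6), against 59.1 CPM in its 16 other dissected cells (3 transcripts, 12.2 to 172.7). Ube2l6 stood at 644.6 CPM in its late erythroid cells (543.2 to 759.3) and 59.1 CPM in its other dissected cells (12.2 to 172.7). Isg15 stood at 99.2 CPM in its late erythroid cells (62.1 to 150.1), with no transcript in its other dissected cells, which allows up to 59.1 CPM. Rsad2 was detected in 55.4% of its late erythroid cells and 12.5% of the other dissected cells. Irf7 stood at 18 CPM in its late erythroid cells (4 transcripts, 4.91 to 46.2), and Ifit1 and Ifit3 had no transcript there. This Irf7 level lay within the range of the late erythroid libraries of the table (0 to 102.8 CPM). Usp18 stood at 31.6 CPM in its late erythroid cells (7 transcripts, 12.7 to 65), above each of the 14 late erythroid libraries (at most 22.6 CPM) and the 3 sorted ones (at most 17.1 CPM) of the table. Ifi203 stood at 27 CPM (6 transcripts, 9.92 to 58.9). This is 1 library, with no test.

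For Rsad2, Ube2l6, Isg15 and Ifi203, the genes with the most similar levels were ranked by Pearson's r of log2 CPM over 39 sums (library by group), among 3446 genes (3447 for Ifi203). The sums share libraries and depth, and r is given as a description. Closest to Rsad2 were the globins Hbb-b2 (0.829), Hba-a1 (0.818) and Hba-a2 (0.764), the haem synthesis enzyme Alas2 (0.759) and Slc4a1 (0.752), which the division of cells used. Closest to Ube2l6 were Ppp1r15a (0.831), a regulator of the stress response of translation, the membrane skeleton genes Epb4.9 (0.814) and Epb4.1 (0.789), the ubiquitin enzyme Ube2o (0.807) and the transcription factor Sox6 (0.791). Isg15 was closest to Hbb-b2 (0.732) and to Bpgm (0.687), the enzyme that makes 2,3-bisphosphoglycerate in red cells. Ifi203 was closest to Serpina3g (0.753), a protease inhibitor.

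Most other interferon-stimulated genes were at lower levels in late erythroid cells than in sorted HSC. Of 51 further effectors in the table, 44 had at least 15 transcripts in all, and 7 of these 44 (15.9%) were higher in late erythroid cells than in sorted HSC in pooled CPM, against 33.9% of all 10140 rows at that depth. Sorted HSC had the highest pooled level of the 4 groups for 35 of 44 effectors (79.5%), against 49.1% of all such rows. Isg20 and Cmpk2 were the 2 effectors with their highest level in late erythroid cells. The summed effector level was 2036.2 ± 617.7 CPM in late erythroid cells (n = 14), 1961.9 ± 473.9 CPM in early erythroid cells (n = 8), 1640.5 ± 442.4 CPM in other dissected cells (n = 14) and 3140.0 ± 102.2 CPM in sorted HSC (SD, n = 3). Of 12 members of the p200 and interferon-inducible GTPase families at that depth, 9 were highest in sorted HSC. Of the 5 listed ISG15 conjugation genes, the 4 found in the table were highest in sorted HSC.

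Of the 9 effectors tested between late erythroid cells and sorted HSC, 2 were higher and 4 lower (median log2 fold change -1.24, against 0.0464 over all genes tested). Of all 2767 genes tested, 18.1% were called higher, near the share of effectors, and 17.5% lower. Isg20, an interferon-induced exonuclease, rose by a log2 fold change of 3.88 ± 0.68 (SE; edgeR quasi-likelihood test with Benjamini-Hochberg adjustment, adjusted p = 8.886e-05). Isg20 also rose against other dissected cells (3.61 ± 0.32, edgeR adjusted p = 3.138e-09) and early erythroid cells (1.15 ± 0.35, edgeR adjusted p = 0.01466). The call against early erythroid cells was lost with no filter (1.06), with at least 2000 transcripts per cell (0.81), with 3 or more transcripts of the higher of Slc4a1 and Car1 (1.26) and without the deepest 5% of cells (0.98). Its pooled levels were 490.8 CPM in late erythroid cells, 284.8 CPM in early erythroid cells, 36.5 CPM in other dissected cells and 35.2 CPM in sorted HSC. Cmpk2, a nucleotide kinase and the neighbour of Rsad2, rose by 1.83 ± 0.62 over sorted HSC (edgeR adjusted p = 0.02166), at 110.3 CPM in late erythroid cells, 99.4 CPM in early erythroid cells, 64.2 CPM in other dissected cells and 29.7 CPM in sorted HSC. Lgals3bp (-1.84 ± 0.54, edgeR adjusted p = 0.01035) and the ligase Dtx3l (-1.42 ± 0.46, edgeR adjusted p = 0.01789) fell in late erythroid cells. Apart from that of Isg20, these calls were lost when 1 sorted library was left out, with the direction kept: Cmpk2 lost its call without sorted HSC replicate 3 (1.31) or 4 (1.77), Lgals3bp without replicate 4 (-1.55) and Dtx3l without replicate 3 (-1.53) or 4 (-1.10).

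Genes of interferon signalling did not pass the test in late erythroid cells against sorted HSC (0 of 7 tested by edgeR). Of all 2767 genes tested there, 35.6% were called. Irf9, a DNA-binding factor of the response, stood at 53.7 CPM in late erythroid cells and 98.3 CPM in sorted HSC, and Ifnar1 and Ifnar2, the chains of the type I receptor, at 35.1 and 71.2 CPM in late erythroid cells and 38.9 and 77.9 CPM in sorted HSC. Stat2 stood at 15.6 CPM in late erythroid cells and 38.9 CPM in sorted HSC. None of these 4 genes passed the filter in that comparison. Over other dissected cells, Stat3 (-1.05 ± 0.26, edgeR adjusted p = 0.002192) and the phosphatase Ptpn6 (-0.83 ± 0.29, edgeR adjusted p = 0.02385) fell in late erythroid cells, 2 of 3 tested. Of all 1079 genes tested there, 23.7% were called lower. Both Stat3 and Ptpn6 missed the threshold with at least 2000 transcripts per cell (-0.64 and -0.65). The 10 interferon genes listed had 3 transcripts in all kept cells.

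In the p200 and GTPase families, Ifi47, an interferon-inducible GTPase, was the 1 of 2 tested genes to fall in late erythroid cells against sorted HSC (-1.56 ± 0.52, edgeR adjusted p = 0.02021). Of all 2767 genes tested there, 17.5% were called lower. The call of Ifi47 was lost without sorted HSC replicate 3 (-1.57) or 5 (-1.34) and with DESeq2 (-1.61). Another GTPase of the list, Igtp, stood at 201.0 CPM in late erythroid cells, 29.4 CPM in early erythroid cells, 73.1 CPM in other dissected cells and 105.7 CPM in sorted HSC.

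A list of other ubiquitin genes of red cell maturation was drawn up with earlier results of these data known. Its genes were chosen for red cell maturation, so its counts are a description. It also holds genes of other kinds, such as the mitophagy receptor Bnip3l. Of 14 genes of this list tested against sorted HSC by edgeR, 6 were higher in late erythroid cells, 0 were lower and 8 missed the threshold. Their median log2 fold change was 1.26, against 0.0464 over all genes tested. Of all 2767 genes tested, 18.1% were called higher and 17.5% lower. Among them were Ube2c, the conjugating enzyme of the anaphase-promoting complex (5.15 ± 0.70, edgeR adjusted p = 3.37e-06), Ube2o, which marks ribosomes for removal in reticulocytes (2.96 ± 0.61, edgeR adjusted p = 0.0004287), and the mitophagy receptor Bnip3l (1.72 ± 0.44, edgeR adjusted p = 0.003481). Trim10, a ligase of red cell precursors, had 349 transcripts in late erythroid cells and 0 in sorted HSC. Against other dissected cells 3 of 6 tested rose, where 19.5% of all 1079 genes were called higher: Ube2o by 2.37 ± 0.35 (edgeR adjusted p = 1.091e-05), Ube2c by 1.49 ± 0.22 and Bnip3l by 1.03 ± 0.20. Against early erythroid cells 2 of 4 rose, where 25% of all 596 genes were called higher: Ube2c by 1.85 ± 0.33 (edgeR adjusted p = 0.0008777) and Bnip3l by 1.20 ± 0.30 (edgeR adjusted p = 0.005856). Both of these calls were lost with 3 or more transcripts of the higher of Slc4a1 and Car1 (1.51 and 1.03), that of Ube2c with at least 2000 transcripts per cell (0.81) and that of Bnip3l without the deepest 5% of cells (0.79).

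In sorted HSC against other dissected cells, 2 of 6 effectors tested were higher and 2 lower, where 16.9% of all 2490 genes were called higher and 19.9% lower. The shares of signalling genes and of genes of the red cell maturation list called lower, 2 of 7 and 2 of 9, were near that background. Lgals3bp (2.95 ± 0.49, edgeR adjusted p = 2.718e-05) and the nuclear body protein Pml (1.96 ± 0.42, edgeR adjusted p = 0.0004465) rose, and the lysosomal reductase Ifi30 (-3.13 ± 0.69, edgeR adjusted p = 0.0005999) and the Schlafen protein Slfn2 (-2.19 ± 0.66, edgeR adjusted p = 0.009311) fell. Uba7, the enzyme that activates ISG15, rose by 2.41 ± 0.64 (edgeR adjusted p = 0.003303), with 76 transcripts in sorted HSC against 26 in other dissected cells; without sorted HSC replicate 4 the value was 2.04 and missed the threshold. Of 7 signalling genes tested, Irf8, a transcription factor of myeloid cells (-2.94 ± 0.76, edgeR adjusted p = 0.003556), and Ifngr1, a chain of the interferon gamma receptor (-1.49 ± 0.45, edgeR adjusted p = 0.008587), fell in sorted HSC. The calls of Slfn2 (-2.08) and Ifngr1 (-1.34) were lost without sorted HSC replicate 5. Of 9 genes of the red cell maturation list tested, Ube2c (-3.80 ± 0.51, edgeR adjusted p = 6.821e-07) and Ube2d3 (-1.06 ± 0.34, edgeR adjusted p = 0.01291) fell. Ube2d3 lost its call without sorted HSC replicate 3 (-0.98), 4 (-1.10) or 5 (-1.07).

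**Figure D5:**
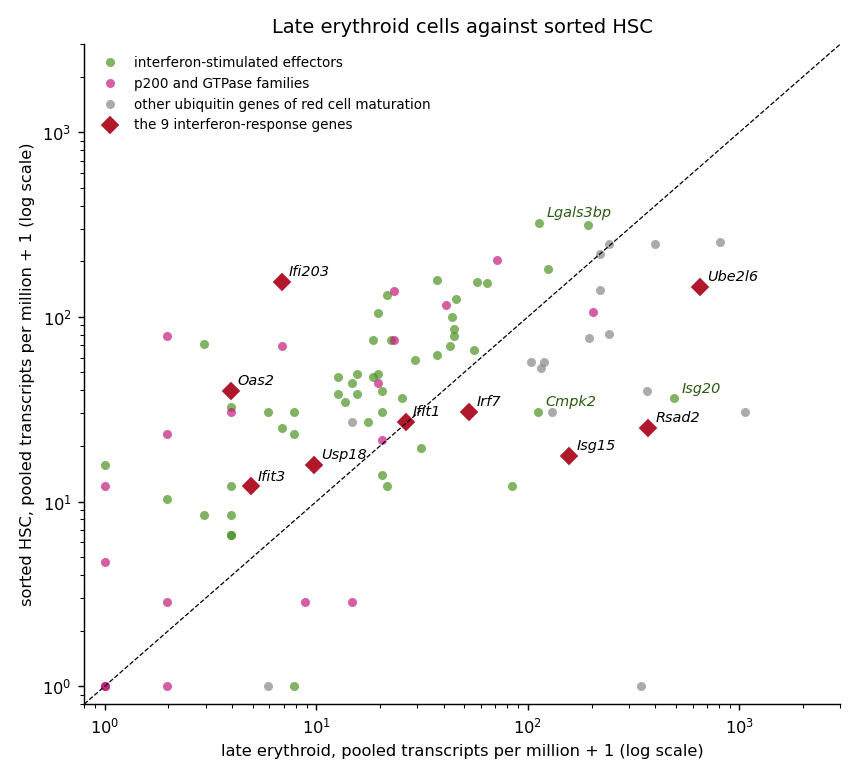
Pooled level in late erythroid cells (x axis) against sorted HSC (y axis), both in CPM plus 1 on log scales; the dashed line marks equal levels. Red diamonds are the 9 genes and circles the genes of 3 pathway lists. Ube2l6, Rsad2 and Isg15 lie right of the line with Isg20 and 14 of the 16 genes of the red cell maturation list (not Ube2l3 or Otub1). Of these 14, Ube2b lies close to the line (217.6 against 216.9 CPM). The list was chosen for red cell maturation, so its place is a description. Of all rows with at least 15 transcripts, 33.9% were higher in late erythroid cells. Ifi203 and Oas2 lie left of the line with most effectors.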

How the data were processed

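Single mouse bone marrow cells were profiled by CEL-seq. Per the series' design text, the deposited table holds transcripts per cell, 23536 rows by 1915 wells. The authors' values are estimated counts (expected counts, not whole numbers) as deposited: 100% of them lay within 0.01 of what a whole number of tags drawn from 256 molecular barcodes gives, which is how tag counts are corrected for barcodes drawn more than once. No source used here states those steps. BWA 0.6.2-r126 and the mm10 build are named in the submitters' processing notes. The same 96 cell barcodes recur in each of the 18 per-library files that the authors deposited beside the table. These files were used for micro-dissected replicate 18 and as an alternative.

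Cells with at least 1000 transcripts were kept. No doublet caller was run, since wells held hand-picked or sorted cells, and an alternative leaves out the deepest 5% of cells. Dissected cells were clustered with scanpy 1.11.5 (2000 variable genes, 30 components, 15 neighbours, Leiden resolution 1, seed 1) without the 9 genes and the interferon lists (128 genes removed), and named "like" a type from marker lists, with a naming rule set after the clusters had been seen. Names rebuilt this way may differ from the study's own.

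Estimated counts were summed per library and group (at least 5 cells), rounded to whole numbers and tested with edgeR 4.0.16 (quasi-likelihood, TMM, Benjamini-Hochberg over all genes tested; R 4.3.3), with library as a block within dissected cells. The step was tested on simulated data. DESeq2 1.42.0 was an alternative, as were library totals, other cell minimums, stricter erythroid rules, no filter, sums of 2 cells, no block and leaving out each sorted library. Standard errors were taken from the log2 fold change and its F statistic and are approximate. Pooled levels carry 95% Poisson intervals, and ratios and shares carry exact 95% intervals. All of these cover counting error only. A count of 0 is bounded by 3 counts of the total. Shares of cells were also computed after thinning each cell to 1000 tags, which left out 26 dissected cells and no sorted cell. Kept transcripts per library ran from 9032 to 313488 in dissected and 3119 to 238770 in sorted libraries, and the depth of micro-dissected replicate 18 was 291141. The members, lists and tests were chosen with earlier results of these data known. Genes of the lists were named if they passed the test, up to 4 per list and comparison by mean level, with Stat2, Irf9, Ifnar1 and Ifnar2 always. Replicates were numbered in record order, and a number pairs no samples. Sorted HSC replicate 2 was not analysed here, and some genes of the lists are not reported here.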

Additional observations from a re-analysis of the deposited data

Results flagged for a closer look

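In 4 cases the highest of the 8 early erythroid libraries stood apart from the rest by Dixon's test, among 8 groups of 4 to 10 libraries examined. Its rate of about 1 in 20 groups by chance holds for normally spread values. It does not hold for counts as low as these, so the number of flags cannot be set against it. Rsad2 stood at 506.3 CPM in replicate 5, from 4 transcripts in 5 cells, and the next library was at 128.5 CPM. Irf7 stood at 71.4 CPM in replicate 11, from 5 transcripts in 10 cells, and the next was at 21.7 CPM. Ifit3 and Usp18 each stood at 13.3 CPM in replicate 10, from 1 transcript in 12 cells, with the others at 0. A single transcript against libraries at 0 is always flagged.

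Micro-dissected replicate 18, which the comparisons do not use, also carried the signal: Rsad2 stood at 495.8 CPM and Ube2l6 at 644.6 CPM in its late erythroid cells, against 59.1 CPM each in its other dissected cells.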

How the results depend on the processing

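Of 376 log2 fold changes of named genes under an alternative, 341 kept their direction and their side of the threshold, 30 missed it, 2 passed it and 3 reversed. The 376 include fits of genes of the set, which were selected on these contrasts, so for them the threshold was no test. The reversed values were those of Ifnar2 in sorted HSC against other dissected cells (-0.07): 0.16 under library totals, 0.10 with sums of 2 cells, and -0.23 to 0.08 when 1 sorted library was left out. The number of genes called moved by more than 1.5 times between late erythroid cells and sorted HSC (986) with no filter (3357), at least 2000 transcripts per cell (557) and erythroblast-like clusters only (610). Between late and early erythroid cells (253) it was 481 with no filter, 57 with 3 or more transcripts of the higher of Slc4a1 and Car1, 143 in erythroblast-like clusters and 21 without the deepest 5% of cells. Between late erythroid and other dissected cells it was 1091 with no filter and 220 at 2000 transcripts, and between sorted HSC and other dissected cells (915) it was 2580 with no filter. Leaving out 1 sorted library gave 664 to 743 and 622 to 715 calls. With no replicate block on library there were 175 calls between late and early erythroid cells and 401 between late erythroid and other dissected cells, and no named call changed. Under library totals the median change over all genes tested was -0.134, -0.213 and 0.229 on the log2 scale in the comparisons of late erythroid cells with sorted HSC, of late with early erythroid cells, and of sorted HSC with other dissected cells. With 3 or more Slc4a1 transcripts the mean in late erythroid cells was 581.5 CPM for Rsad2 and 1039.2 CPM for Ube2l6, and in erythroblast-like clusters 592.2, 1169.0 and, for Isg15, 278.8 CPM. At 500 transcripts per cell, which adds sorted HSC replicate 1, sorted HSC had 60 CPM of Rsad2 and 106.6 CPM of Ube2l6. At clustering resolution 2, erythroblast-like cells had 588.6 CPM of Rsad2, 1128.3 CPM of Ube2l6 and 272.8 CPM of Isg15. At that resolution a Car1-led cluster of 29 cells, 27 of them early erythroid, took no name and was outside this class. Its Rsad2 level was 71.6 CPM. Without 1 sorted library the sorted HSC means ran from 15.4 to 27.9 CPM for Rsad2, 135.5 to 159.0 for Ube2l6, 9.83 to 18.1 for Isg15 and 135.0 to 161.4 for Ifi203. Without micro-dissected replicates 1 to 5, chosen after seeing the data, late erythroid means were 365.5 CPM for Rsad2, 619.3 for Ube2l6, 127.2 for Isg15 and 18 for Ifi203. The fitted log2 fold change of Isg15 between late erythroid cells and sorted HSC was 2.73 without sorted HSC replicate 4 and 2.64 without replicate 5. The causes were not tested, beyond the fewer genes or cells that these settings leave. Depth limits Ifit3, Usp18 and Oas2, with under 10 transcripts in late erythroid cells each.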
